A study of Mus musculus with 4 samples.

Results

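The genes described here encode the proteins of the cytoplasmic ribosome. They were chosen by symbol alone, as the protein-coding genes of the GENCODE M1 annotation of the mouse genome build mm9 named Rpl or Rps with a number and at most 1 lower-case letter, together with Rplp0, Rplp1, Rplp2 and Rpsa. The rule found 80 genes among 22367 protein-coding genes, 48 of the large subunit and 32 of the small subunit. The study mapped Wapal, the factor that releases cohesin from chromatin, in mouse embryonic stem cells (ESCs) by biotin-mediated chromatin immunoprecipitation and sequencing (bioChIP-seq). ESCs are cells of the early embryo that renew themselves in culture and can form all tissues of the body. The FB Wapal group consisted of 2 independently derived clones of ESCs that carried the bacterial biotin ligase BirA and a Wapal cDNA with a Flag and biotin tag, beside their own untagged Wapal. The control was 1 line of ESCs that carried BirA with no tagged Wapal, and 1 library of sheared genomic DNA served as input. All lines were grown in standard ESC culture without further treatment, and streptavidin recovered the biotinylated material from formaldehyde-crosslinked chromatin.

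The deposited data were 2 lists of regions, 1 that joins the FB Wapal clones and 1 of BirA. The paper removed the BirA regions before its own later analyses. In the FB Wapal list used here they were not removed, and 174 of its regions share a BirA region. The FB Wapal list held 8497 regions with a median width of 814 bp and the authors' MACS scores from 50.0 to 685. The BirA list held 266 regions with a median width of 469 bp and scores from 50.2 to 408. The score is the negative log10 of the p-value that the peak caller MACS gave a region, multiplied by 10, and it is compared only within a list. There was 1 list per group, so no value has a spread between replicates, no difference was tested, and the Wilson intervals given with the shares cover counting error over genes or regions only. The depth of the libraries and the reads under each region are not known from the lists, and neither list holds expression values.

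Ribosomal protein genes are short, are transcribed in every dividing cell and are among the most active genes of the genome. Their transcripts start at a stretch of pyrimidines that ties their translation to growth signals, and many of them carry small nucleolar RNAs (snoRNAs), guides for the modification of ribosomal RNA, inside their introns. Cohesin is the ring that holds DNA loops and sister chromatids together, Wapal opens it, and the DNA-binding protein CTCF halts it at sites with a shared motif. The median ribosomal protein gene was 3.31 kb long against 15.4 kb for all protein-coding genes. Of the 80 genes, 30 held an annotated snoRNA gene on their own strand (37.5%), against 1.20% of all protein-coding genes.

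The 3′ counts in this paragraph use a measure that was added after the regions had been seen. They describe these genes and give no independent support for a difference from others. Of the 80 ribosomal protein genes, 9 had an FB Wapal region within 2 kb of the 3′ end of the gene (11.2%, interval 6.03 to 20.0), against 2.96% of all protein-coding genes. Without the FB Wapal regions that share a BirA region, 7 had one there (8.75%), against 2.72% of all genes. Within 2 kb of the 5′ end, the start of transcription, the count was 0 (interval 0 to 4.58%), against 2.27% of all genes, which lies inside that interval. The regions at Rps19, Rpl4, Rpl23, Rpl3, Rpl37a and Rps15a held a CTCF core motif with at most 1 mismatch, searched on both strands. That is 66.7% of the 9 regions, against 73.8% of the whole FB Wapal list, and the regions at Rps9, Rps12 and Rpsa held none. Those 6 matches are shown with 20 bases on each side, 5′ to 3′ on the strand of the motif. They are shown because they lie inside the regions counted at the 3′ ends. Capitals mark the 12 bases of the match, exact in Rps19 and Rpl4 and with 1 mismatch in the others.
Rps19: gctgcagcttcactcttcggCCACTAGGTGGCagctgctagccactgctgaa
Rpl4: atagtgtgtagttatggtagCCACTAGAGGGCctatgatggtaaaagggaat
Rpl23: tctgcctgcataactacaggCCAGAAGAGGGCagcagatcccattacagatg
Rpl3: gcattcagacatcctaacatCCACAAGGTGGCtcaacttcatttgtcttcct
Rpl37a: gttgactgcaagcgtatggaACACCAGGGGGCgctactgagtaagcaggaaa
Rps15a: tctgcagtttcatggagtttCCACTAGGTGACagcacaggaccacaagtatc
In mm9 the Rps19 sequence lies at chr7:25675627-25675678, plus strand, and the Rpl4 sequence at chr9:64026550-64026601, plus strand. The Rpl23 sequence lies at chr11:97638511-97638562, plus strand, and the Rpl3 sequence at chr15:79907030-79907081, plus strand. The Rpl37a sequence lies at chr1:72763710-72763761, plus strand, and the Rps15a sequence at chr7:125245935-125245986, minus strand. None of the 6 holds an annotated exon base, and the centres of the matches lie 0.828, 0.206, 0.304, 1.16, 3.35 and 1.93 kb past the 3′ ends of these genes in the order shown. A match is a description of the sequence, and occupancy by CTCF was not measured in the lists.

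The first comparison asked how often the start of a ribosomal protein gene lay near an FB Wapal region. Within 2 kb of the 5′ end the count was 0 of 80 genes (0%, Wilson interval 0 to 4.58), against 2.27% of all protein-coding genes (508 of 22367). The limit that a count of 0 allows here reaches above the share of all genes, so the difference was not detectable with 80 genes. Within 10 kb the count was 12 (15.0%, interval 8.79 to 24.4), against 9.50% of all genes. Within 50 kb the count was 42 (52.5%, interval 41.7 to 63.1), against 39.3% of all genes. The share of all genes lay inside the interval of the ribosomal protein genes at 10 kb and below it at 50 kb. Ribosomal protein genes had more close neighbours, with a median of 3 other protein-coding 5′ ends in that distance against 2 for all genes, and the part of this in the count was not tested.

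**Figure D1:**
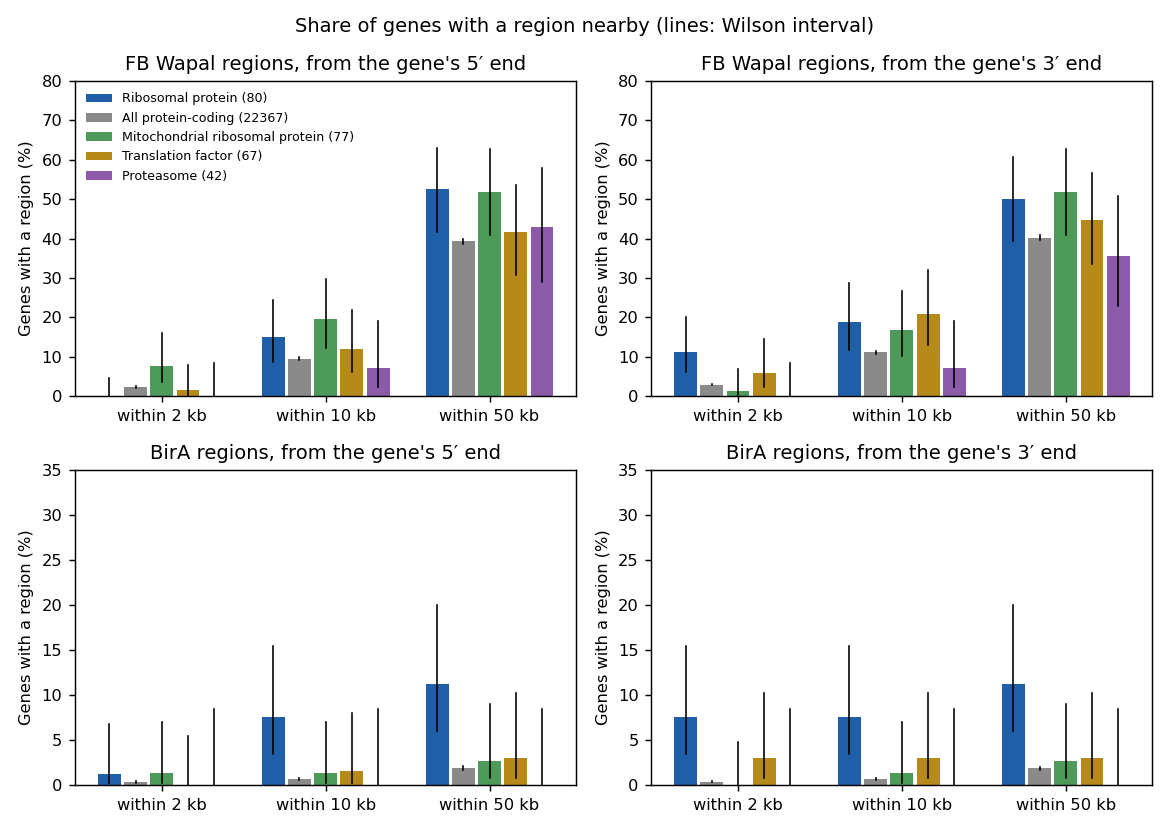
Percentage of genes with an FB Wapal region (top) or a BirA region (bottom) within 2, 10 and 50 kb of the 5′ end (left) or the 3′ end (right), for ribosomal protein genes, all protein-coding genes and the 3 comparison lists, with bars for the share and lines for the 95% Wilson interval. Ribosomal protein genes stand at 0% within 2 kb of the 5′ end and at 11.2% within 2 kb of the 3′ end for FB Wapal.

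The median distance from the 5′ end to the nearest edge of an FB Wapal region was 46.3 kb for the ribosomal protein genes (quartiles 15.3 and 109 kb, range 2.10 to 882 kb) and 71.0 kb for all genes. The 5 nearest genes were Rps28 at 2.10 kb, Rps12 at 2.48 kb, Rpl37a at 2.69 kb, Rps9 at 3.11 kb and Rpsa at 4.25 kb. All but Rps28 had this region downstream of their start, at or past the end of the gene. The 5 farthest were Rpl7 at 202 kb, Rpl39 at 265 kb, Rpl7a at 326 kb, Rps29 at 803 kb and Rpl10l at 882 kb. No region lay within 50 kb of 38 genes or within 100 kb of 22 genes. At the limits, Rpl9 at 9.98 kb was the last gene inside 10 kb and Rpl6 at 10.6 kb the first outside, and Rpl12 at 48.5 kb was the last gene inside 50 kb.

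**Figure D2:**
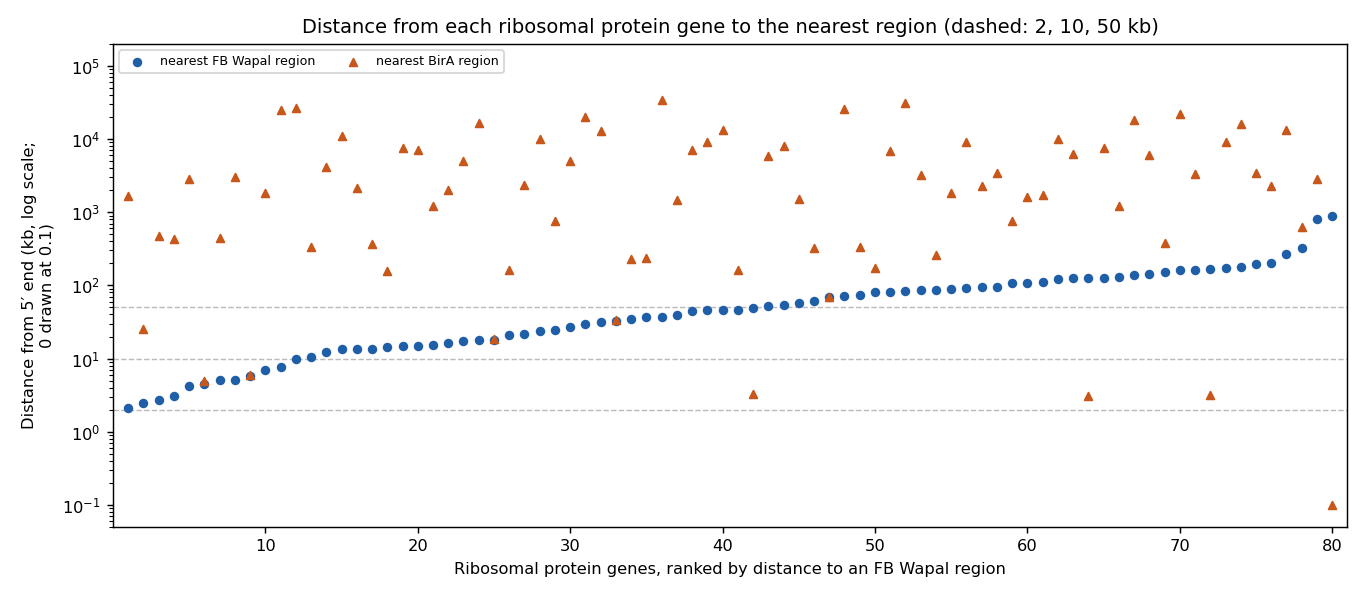
Distance in kb (log scale) from the 5′ end of each of the 80 ribosomal protein genes to the nearest FB Wapal region (circles) and the nearest BirA region (triangles), with unnamed genes in order of the FB Wapal distance and dashed lines at 2, 10 and 50 kb. No circle lies under the 2 kb line, and 9 triangles lie under the 50 kb line.

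Genes of both subunits had regions nearby. Of the large subunit genes, 6 of 48 (12.5%) had an FB Wapal region within 10 kb of the 5′ end and 23 (47.9%) within 50 kb, and of the small subunit genes, 6 of 32 (18.8%) and 19 (59.4%), and the intervals of the subunits overlap at both distances. The 4 genes on the X chromosome had none within 10 kb: Rpl10 stood at 21.5 kb, Rpl36a at 23.7 kb, Rps4x at 123 kb and Rpl39 at 265 kb. Among the 4 paralogs, copies of other ribosomal protein genes, Rpl3l stood at 17.6 kb, Rps27l at 34.2 kb, Rpl39l at 80.9 kb and Rpl10l at 882 kb. Rps2 and Rpl3l lie within 10 kb of each other on chromosome 17 and had the same nearest region (score 148), which stood 27.3 kb from Rps2. Fau, which encodes a ribosomal protein fused to a ubiquitin-like protein and lies outside the symbol rule, stood at 68.1 kb.

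Other genes of protein synthesis and breakdown were counted beside them. Of 77 genes for mitochondrial ribosomal proteins, which build the separate ribosome of that organelle, 6 (7.79%) had an FB Wapal region within 2 kb of the 5′ end. In Mrpl3, Mrpl39, Mrps18b and Mrpl11 the region covered the 5′ end itself. Of 67 genes with a symbol of Eif or Eef and a number, called translation factor genes here, the count was 1. Of 42 proteasome genes it was 0. At the 3′ end the order was another one, with 1 of 77 mitochondrial ribosomal protein genes (1.30%), 4 of 67 translation factor genes (5.97%), 0 of 42 proteasome genes and 9 of 80 ribosomal protein genes. The 4 genes of the Eif and Eef symbols were Eef1b2, Eif2c3, Eef1a1 and Eif4a2, of which Eif2c3 encodes an Argonaute protein and no translation factor. Within 10 and 50 kb of the 5′ end, mitochondrial ribosomal protein genes stood at 19.5% and 51.9%. Ribosomal protein genes stood at 15.0% and 52.5%, translation factor genes at 11.9% and 41.8%, and proteasome genes at 7.14% and 42.9%. Within 10 kb of the 3′ end the shares were 16.9%, 18.8%, 20.9% and 7.14% in the same order. No difference between the lists was tested.

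The second comparison, added after the regions had been seen, asked how often a region lay at the 3′ end of the gene. An FB Wapal region lay within 2 kb of the 3′ end of 9 ribosomal protein genes (11.2%, Wilson interval 6.03 to 20.0), against 2.96% of all protein-coding genes. In the 2 kb past the 3′ end alone the count was also 9 (11.2%), against 2.29% of all genes. Among protein-coding genes of at most 6 kb the share within 2 kb was 2.99%, so the share among short genes was close to that among all genes. Since this measure was chosen because these regions had been seen, its count is a description of these genes and no independent support for their difference from others.

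Coverage of the ribosomal protein genes by FB Wapal regions was concentrated just after the 3′ ends. It was highest from 500 to 1400 bp past the 3′ end, where 8 of the 80 genes (10.0%) lay under a region, against a highest value of 213 of all protein-coding genes (0.952%) at 1400 to 1500 bp. Around the 5′ end all protein-coding genes were covered most at 100 bp (222 genes, 0.993%), and no ribosomal protein gene was covered there. The Wilson interval of 0 of 80 genes, 0 to 4.58%, holds that share, so the difference was not detectable. Of the regions within 2 kb of a ribosomal protein gene's 3′ end, 9 of 9 had their centre downstream of it, against 64.0% of the regions at the 3′ ends of all genes (453 of 708 pairs).

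**Figure D3:**
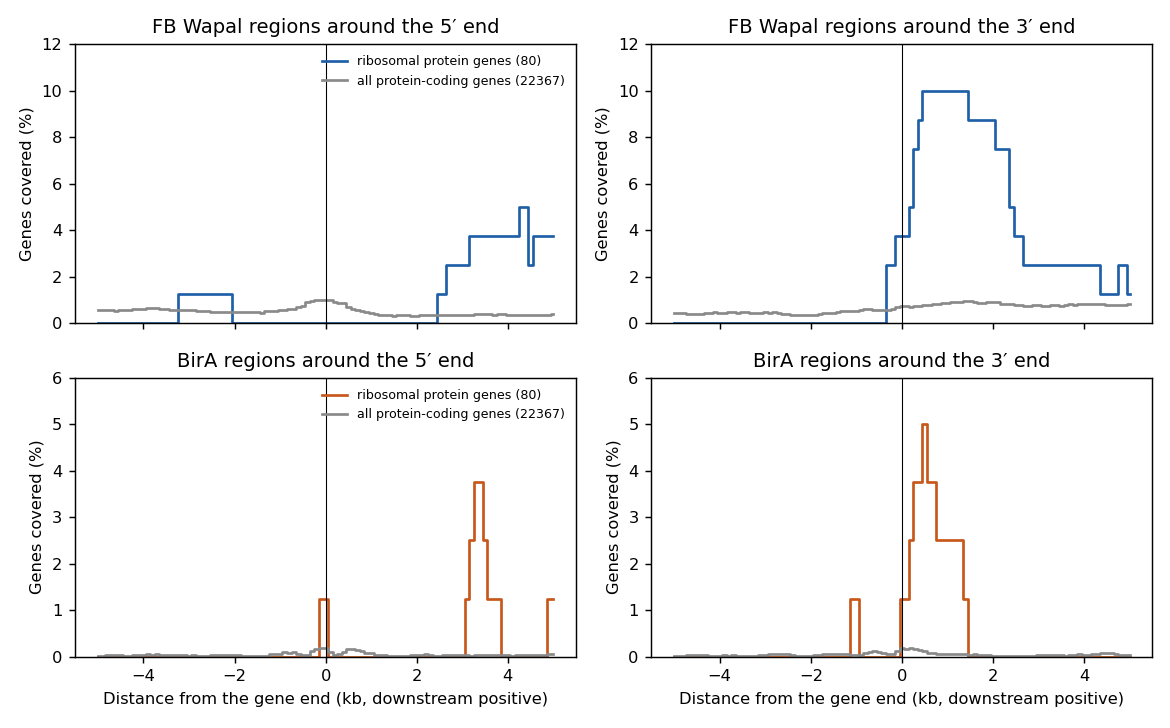
Percentage of genes covered by an FB Wapal region (top) or a BirA region (bottom) at each 100 bp step from 5 kb before to 5 kb after the 5′ end (left) and the 3′ end (right), for the 80 ribosomal protein genes (coloured) and all 22367 protein-coding genes (grey). The FB Wapal line of the ribosomal protein genes reaches 10.0% past the 3′ end and is 0% at the 5′ end.

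The small subunit held 5 of the 9 genes. At Rps19, whose human counterpart is mutated in Diamond-Blackfan anaemia, a region of 2319 bp with a score of 128 began 322 bp past the 3′ end (chr7:25675147-25677465). At Rps9 a region of 1359 bp (score 104, chr7:3658708-3660066) began 205 bp past it, and at Rps12 a region of 1990 bp (score 84.8, chr10:23502549-23504538) began 452 bp past it. Rps15a had the farthest and narrowest region, 826 bp wide with a score of 74.5 and 1569 bp past the 3′ end (chr7:125245498-125246323). At Rpsa, whose protein also serves as a laminin receptor, the region was 2391 bp wide (score 55.1, chr9:120041133-120043523) and covered the last 355 bp of the gene. Just outside the 2 kb limit, Rps24 had a region of 2754 bp with a score of 62.0 that began 2239 bp past the gene.

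The other 4 genes belonged to the large subunit. At Rpl37a a region of 4221 bp (score 77.1, chr1:72760520-72764740) began 137 bp past the 3′ end and ranked 13 of 8497 by width, and a second region of 1075 bp with a score of 140 followed at 4770 bp. At Rpl4, a protein that lines the exit tunnel of the ribosome, the region was 1590 bp wide (score 108, chr9:64026212-64027801) and covered the last 158 bp of the gene and part of its neighbour Snapc5. At Rpl23, a protein that binds Mdm2 when free of the ribosome, it was 2649 bp wide (score 112, chr11:97636553-97639201). The region covered the last 361 bp of the gene and part of its neighbour 1700001P01Rik. At Rpl3, a protein beside the catalytic centre of the ribosome, a region of 2114 bp (score 82.6, chr15:79905884-79907997) began 214 bp past the gene. Thus 3 regions covered the 3′ end and 6 began past it. These 3, at Rpsa, Rpl23 and Rpl4, were also the FB Wapal regions that overlapped a ribosomal protein gene at all (3 of 80, 3.75%), against 12.5% of all protein-coding genes, which are longer.

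**Figure D4:**
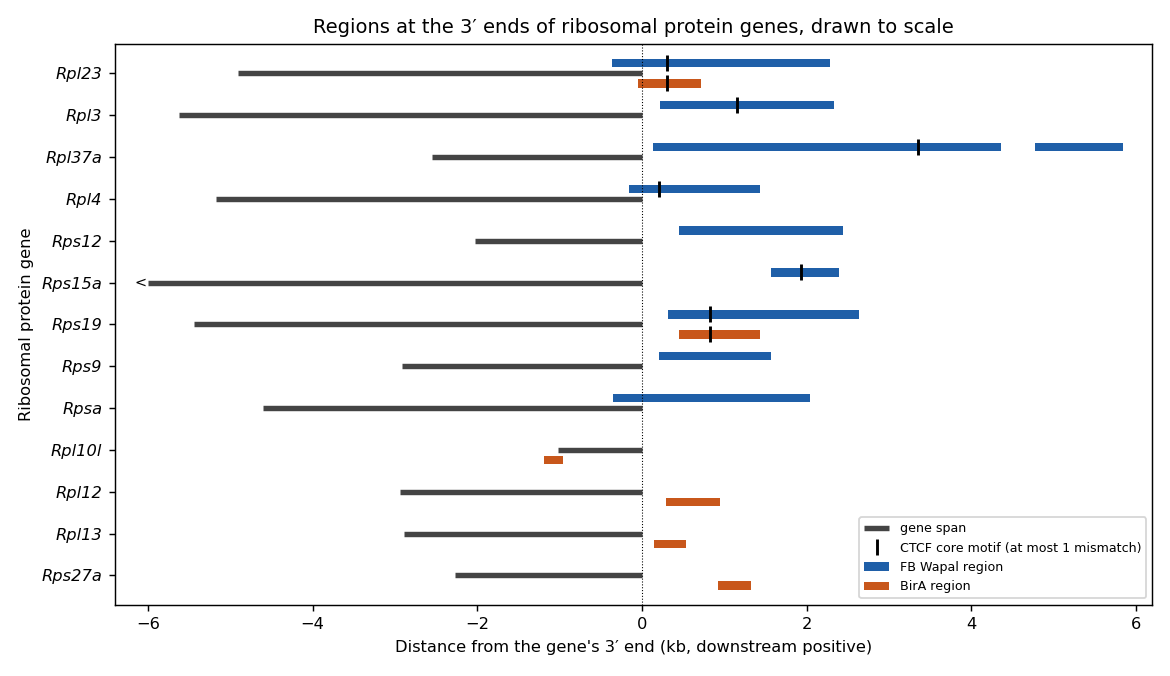
Map of the 13 ribosomal protein genes with a region within 2 kb of the 3′ end, aligned at the 3′ end and drawn to scale in kb, with the gene span in grey (cut at 6 kb for Rps15a), FB Wapal regions in blue, BirA regions in orange and the best CTCF core motif of a region as a black tick where it has at most 1 mismatch. At 8 of the 9 genes with a blue bar it begins within 500 bp of the 3′ end or covers it.

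These regions were wide. Their median width was 2114 bp, against 814 bp over the list and 898 bp over the 615 FB Wapal regions within 2 kb of the 3′ ends of other genes. Of the 9, 8 were at least 1300 bp wide (88.9%), against 8.18% of the list and 18.2% of those 615 regions, and all 9 were wider than the median of the list. Their scores had a median of 84.8 and a range of 55.1 to 128, against a list median of 81.9. A CTCF core motif with at most 1 mismatch stood in 6 of 9 (66.7%), against 73.8% of the list and 70.1% of all regions of at least 1300 bp. The width of 1300 bp was chosen after these values were seen.

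**Figure D5:**
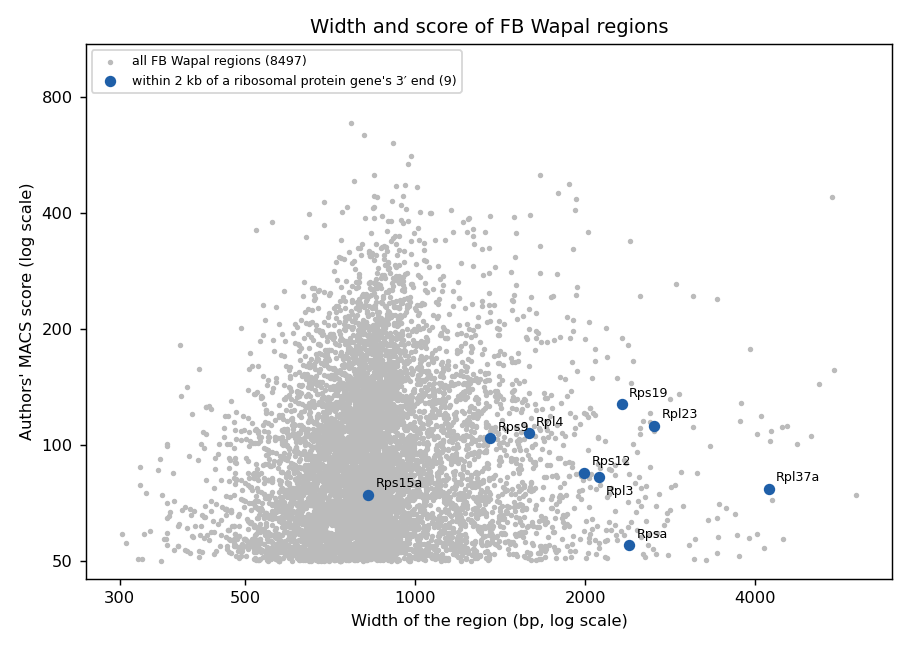
Width in bp and the authors' MACS score (both log scales) of all 8497 FB Wapal regions (grey) and of the 9 within 2 kb of a ribosomal protein gene's 3′ end (blue, named). The blue points lie to the right of the bulk of the list, with Rps15a at 826 bp as the exception, and between 55.1 and 128 in score.

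The remaining regions near the starts of ribosomal protein genes lay upstream or inside neighbours. Upstream of Rps28, 2.10 kb from its 5′ end, a region with a score of 59.2 lay in Ndufa7 and held an exact CTCF core motif. Upstream of Rpl9, at 9.98 kb, a region with a score of 59.9 lay in Lias and also held an exact match. Rpl29 had a region 7.01 kb upstream (score 50.9), and Rpl3 had 1 at 5.08 kb upstream (score 66.9) beside that at its 3′ end. Of the 14 pairs of a region and a gene within 10 kb of a 5′ end, 10 lay downstream of it (71.4%, interval 45.4 to 88.3), against 40.5% for all protein-coding genes. These 10 include the 3′-end regions of Rps19, Rpl4, Rpl23, Rpl3, Rpl37a, Rps9, Rps12 and Rpsa described above, so the share is no separate result. Median gene length was 3.31 kb against 15.4 kb for all genes, and the part of this in the share was not tested.

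The BirA list showed which regions were recovered by streptavidin in ESCs with no tagged Wapal, and ribosomal protein genes lay near these as well. Within 2 kb of the 5′ end the count was 1 of 80 (1.25%), against 0.326% of all protein-coding genes. Within 10 kb it was 6 (7.50%, interval 3.48 to 15.4), against 0.635%, and within 50 kb 9 (11.2%, interval 6.03 to 20.0), against 1.86%. The median distance to a BirA region was 2298 kb for ribosomal protein genes and 4136 kb for all genes. Of the 80, 2 overlapped a BirA region (2.50%, Rpl23 and Rpl10l), against 0.519% of all genes.

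At the 3′ end 6 genes had a BirA region within 2 kb (7.50%), against 0.340% of all protein-coding genes, and 5 had one in the 2 kb past it (6.25%, interval 2.70 to 13.8), against 0.291%. The 6 genes and their regions are those counted within 10 kb of the 5′ end above, so the 3′ share is no separate result. Of the 76 genes behind the share of all genes, 41 encode histones, and without histone genes it was 0.157% within 2 kb. Among genes of at most 6 kb it was 0.899% with histone genes and 0.293% without them. At Rps19 the BirA region had a score of 139 and spanned 453 to 1428 bp past the 3′ end, inside the FB Wapal region there. At Rpl23 it had a score of 72.9 and spanned the last 49 bp of the gene and 718 bp past it, again inside the FB Wapal region. Rps19 and Rpl23 were the genes with both kinds of region there, so that 2 of the 9 FB Wapal regions shared a BirA region (22.2%, interval 6.32 to 54.7). The share was 2.05% of the list, 8.62% of the 615 regions at the 3′ ends of other genes and 9.64% of regions of at least 1300 bp, and the latter 2 shares lie inside the interval of the 9 regions.

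The other BirA regions at 3′ ends had no FB Wapal region beside them. At Rpl12, a protein at the base of the ribosomal stalk, it lay 292 to 954 bp past the gene (score 54.4, chr2:32820308-32820970). At Rpl13 it lay 142 to 536 bp past the gene (score 51.3) and inside the overlapping gene model Gm20388. At Rps27a, whose product is made fused to ubiquitin, it lay 919 to 1323 bp past the gene (score 62.3) and inside the convergent gene Mtif2. The BirA region at Rpl10l was of another kind. Rpl10l is a copy of Rpl10 with 1 exon that is expressed in the testis, and a BirA region of 240 bp with a score of 50.8, near the lowest of the list, covered its 5′ end. The 174 bases of that region upstream of Rpl10l are shown because this is the single ribosomal protein gene whose start lay in a region of either list (chr12:67385389-67385562 in mm9, minus strand, 5′ to 3′, no capitals since no motif with at most 2 mismatches was found).
Rpl10l: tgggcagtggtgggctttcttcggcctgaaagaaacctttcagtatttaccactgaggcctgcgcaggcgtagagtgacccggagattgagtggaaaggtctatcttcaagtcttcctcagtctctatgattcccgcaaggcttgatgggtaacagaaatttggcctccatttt
With either list, 12 of 80 genes (15.0%) had a region in the 2 kb past the 3′ end, against 524 of all protein-coding genes (2.34%).

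Farther from a 5′ end, Rps12 had a BirA region at 25.0 kb (score 52.7), inside 1110021L09Rik. Rplp0, the core of the ribosomal stalk, stood just outside the 50 kb limit at 68.8 kb.

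Other measures were set beside these counts. An FB Wapal region lay at the 3′ end of 5 of 30 genes with a snoRNA (16.7%) and of 4 of 50 without (8.00%), and 3 of 30 and 3 of 50 had a BirA region there. The nearest snoRNA gene to the BirA region stood 1.37 kb away at Rpl12, 2.26 kb at Rpl13 and 4.06 kb at Rpl23, while at Rps19 and Rps27a the nearest small RNA gene stood 3232 and 209 kb away. The next gene downstream converged on 2 of the 9 genes with an FB Wapal region at the 3′ end and on 37 of the other 71, and the median gap to it was 17.4 kb against 6.13 kb. Ribosomal protein genes have many processed copies in the genome, and the share of 49-base windows that occur once in mm9 was lower in the 4 kb around their 5′ ends (median 93.6%) than around those of all genes (98.4%). Around the 3′ ends it was 92.3% against 98.1%, and it ranged from 89.1 to 98.8% for the 9 genes with an FB Wapal region there. Reads that match several places were not kept by the authors, so a region in a repeated stretch could be missed. The part of snoRNA genes, neighbours, transcription and repeated sequence in these counts was not tested.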

How the data were processed

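BioChIP-seq libraries of 2 FB Wapal clones, 1 BirA line and 1 input were made by the authors, who aligned uniquely mapping reads to mm9 with Bowtie and called regions against input with MACS. The submitters' processing notes name MACS 1.4.2. Each deposited list gives a score per region, written by the authors' peak caller as 10 times the negative log10 of its p, with no normalization between lists. The rule that joined the regions of the clones is not given in the sources used here.

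Starts in the deposited lists were read as 0-based and converted to 1-based positions. Distances ran from the end of each GENCODE M1 gene on chromosomes 1 to 19, X and Y to the nearest edge of a region, 0 where covered. The CTCF core motif was searched with at most 1 mismatch. Intervals are 95% Wilson intervals. Genes named were those with a region within 2 kb of the 5′ end or over the gene, the 5 nearest and farthest, those beside each limit, X-linked genes, paralogs and Fau, and some genes under this rule are counted but not reported here by name. Genes at 3′ ends, with their neighbours, were named after their values were seen. The members and lists were chosen with earlier results of these data known, and all 3′ measures, gene length limits and the width of 1300 bp were added after seeing the data. A planned share of repeat-masked bases was not computed, since the reference used does not mark repeats. On simulated data 100 of 100 planted distances and 100 of 100 planted motifs were recovered. Alternatives were other definitions of the gene end, the centre of a region, a score of at least 100, removal of regions shared with BirA, and lists without paralogs or with neighbours counted once. Python 3.11.15, numpy 2.4.6, pysam 0.24.0, numba 0.67.0 and matplotlib 3.10.9 were used.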

Additional observations from a re-analysis of the deposited data

How the results depend on the processing

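A score of at least 100 lowered every count it could. FB Wapal regions then lay within 10 kb of the 5′ end of 5 ribosomal protein genes, against 3.43% of all genes, within 50 kb of 16 (15.9% of all genes) and within 2 kb of the 3′ end of 4 (1.05%), and the median distance was 167 kb. BirA regions then lay within 2, 10 and 50 kb of the 5′ end of 0, 1 and 2 genes (0.139%, 0.304% and 0.782% of all genes), within 2 kb of the 3′ end of 1 (0.170%) and over 0, and the median distance was 12944 kb. Of the 5 FB Wapal regions left within 10 kb, 40.0% shared a BirA region, namely those at Rps19 and Rpl23, and the share of the list at this score is not given. With the 5′ end of any transcript, 3 genes (Rps9, Rps19 and Rpl23) had an FB Wapal region within 2 kb, against 3.58% of all genes. For BirA regions the count was 5, against 0.389%. Without the paralogs 0 genes had a BirA region within 2 kb of the 5′ end, against 0.326% of all genes. With an overlap of at least 100 bp 0 genes overlapped a BirA region, and 0% of the FB Wapal regions within 10 kb shared at least 50% of their length with one. The shares of all genes and of the whole list at these overlaps are not given, so these values of 0 are a description only. The CTCF core motif stood in 28.6% of the 14 FB Wapal regions within 10 kb of a 5′ end with no mismatch and in 100% with at most 2, against 71.4% with at most 1. Over the list it stood in 2370 of 8497 regions with no mismatch, in 8168 with at most 2 and in 6271 (73.8%) with at most 1. Without the FB Wapal regions that share a BirA region, 10 genes had one within 10 kb (9.13% of all genes), 40 within 50 kb (38.7%) and 7 within 2 kb of the 3′ end (8.75% against 2.72% of all genes). A motif share within 2 kb of the 5′ end could not be given, since no region lies there. No paired analysis was possible because the FB Wapal list joins both clones and no test was made, and no replicate could be left out. The lists hold no reads, so regions under the caller's threshold could not be seen.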

Other observations

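Regions of both lists stood together at the 3′ ends of other genes. Within 2 kb of the 3′ end, 62 of 22367 protein-coding genes had a region of each list. Of these, 37 were histone genes, 2 were Rps19 and Rpl23 of the 80 ribosomal protein genes, and 23 were other genes. Among the latter, chosen after their values were seen, were Eif4a2, an RNA helicase of translation initiation, with an FB Wapal score of 502 and a BirA score of 408, and Eef1a1, an elongation factor, with 245 and 195. Gapdh, an enzyme of glycolysis, had 68.9 and 92.3, and Ppia, a prolyl isomerase, had 92.4 and 101. The same scores were also listed for Rfc4 as for Eif4a2, for Mto1 as for Eef1a1 and for Iffo1 as for Gapdh. Genes counted here can therefore share a region. The pluripotency factor gene Sox2 had 112 and 57.2, and Dppa5a, a marker of ESCs, had 53.9 and 62.5. Also among the 23 were Nlrp12 with 439 and 205, Fosb with 128 and 95.8 and Prss12 with 118 and 78.2. The genes named are examples and define no shared class of the 23. Of the 76 genes with a BirA region within 2 kb of the 3′ end, 41 were histone genes, 6 were ribosomal protein genes and 29 were others.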
